A study of Mus musculus with 2 samples.

Results

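Mir378a and its relatives in the mouse heart comprise 5 of the 2202 microRNA genes that were counted. They are the genes whose GENCODE M21 symbol begins with Mir378, namely Mir378a, Mir378b, Mir378c and Mir378d, and Gm25301, a predicted microRNA gene annotated on the strand opposite Mir378a. They were chosen by the level of Mir378a, whose mean over these libraries was the highest of all microRNA genes, so the levels given here are a description and carry no test. Small RNA was sequenced from hearts of aged female B6CASTF1/J mice, the first-generation hybrid of C57BL/6J and CAST/EiJ, with no treatment named. The mice were 18 to 20 months old per the labels, which put both libraries in 1 group as biological replicates 1 and 2, with separate tissue records and 1 shared donor record. The design therefore holds no contrast between conditions. Spread and p-values refer to these 2 libraries alone, and part of that spread may be technical.

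MicroRNAs are short RNAs cut from a hairpin in a longer transcript. They guide Argonaute proteins to messenger RNAs through the seed, bases 2 to 8 of the mature form, and lower the output of those messages. Mir378a lies inside Ppargc1b, the gene of PGC-1β, a coactivator of mitochondrial biogenesis and fat oxidation. In mice it is known from heart, skeletal muscle and brown fat, and its 2 arms have been tied to energy metabolism through targets such as Crat and Med13.

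The RefSeq table of microRNA sequences (GRCm38.p6) matched 3 of the 5 genes, Mir378b, Mir378c and Mir378d. Their mature forms are shown because these 3 share a name but not a seed. Mir378a had no match in that table, so its seed was not compared with theirs. Each is written from its 5′ end, with the seed in capitals. The mature form of Mir378b lies at chr11:88352839-88352858 on the plus strand, that of Mir378c at chr14:46954905-46954925 on the minus strand, and that of Mir378d at chr10:126710355-126710376 on the minus strand.
mmu-miR-378b: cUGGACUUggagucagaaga
mmu-miR-378c: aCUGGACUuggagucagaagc
mmu-miR-378d: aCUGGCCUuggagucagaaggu

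The 3 seeds differ from one another. miR-378b begins 1 base later than miR-378c in the shared stretch, so its seed is shifted by 1 base, although 19 of its 20 bases match miR-378c and the only change is A20C, counted from the 5′ end of miR-378b. miR-378d matches miR-378c at 19 of 21 aligned bases, with the changes A6C and C21G counted from the 5′ end of miR-378c. The first of these falls in the seed. No other mature microRNA among the 1679 in the table had any of the 3 seeds. Mir378a is not among those, so the search does not show whether it has one of them. The longest stretch shared by the mature forms was 19 nt between miR-378b and miR-378c and 14 nt between miR-378d and either of them.

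The hairpins are shown with the mature form in capitals, because its place in the hairpin also differs among them.
Mir378b: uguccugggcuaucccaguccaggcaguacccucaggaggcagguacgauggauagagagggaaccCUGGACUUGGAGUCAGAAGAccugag
Mir378c: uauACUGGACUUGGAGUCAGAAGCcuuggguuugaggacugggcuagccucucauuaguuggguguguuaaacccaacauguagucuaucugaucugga
Mir378d: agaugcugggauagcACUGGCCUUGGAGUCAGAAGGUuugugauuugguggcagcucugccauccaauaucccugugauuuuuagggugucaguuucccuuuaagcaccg

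In Mir378b the mature form occupies bases 67 to 86 of 92, on the 3′ arm. In Mir378c it occupies bases 4 to 24 of 99, and in Mir378d bases 16 to 37 of 110, both on the 5′ arm. Between these hairpins no stretch longer than the mature match was shared. Among 1002 other hairpins in the table, none shared more than 10 nt with Mir378b, 11 nt with Mir378c or 10 nt with Mir378d. Mir378a had no match in the table, so it was not part of this comparison. The predicted minimum free energy of folding was -31.1 kcal/mol for Mir378b, -27 kcal/mol for Mir378c and -35 kcal/mol for Mir378d. In the predicted folds 15 of 20, 15 of 21 and 13 of 22 mature bases were paired, in that order.

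Replicate 1 held 9362013 reads and replicate 2 held 10549508, of which 3383676 and 3676084 were sense reads of microRNA genes. Levels are given as sense counts per 1000000 of that gene total (CPM). A read covers a whole mature microRNA, so CPM was not divided by gene length. Reads that map to more than 1 place, 43.9% of replicate 1 and 43.2% of replicate 2, entered no gene count. The counts of genes that share a stretch, as Mir378b, Mir378c and Mir378d do in their mature forms, are therefore uncertain, and the files do not separate the arms of a hairpin. Whether Mir378a shares such a stretch with them was not compared. Its counts, and the ratios between it and the relatives, may carry the same uncertainty. Intervals are 95% Wilson intervals unless called exact, and intervals and limits from 3 counts cover counting error only.

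Mir378a was by far the highest of the 5 genes. It had 387143 sense counts in replicate 1, or 114415 CPM (interval 114076 to 114755), and 517774 in replicate 2, or 140849 CPM (140494 to 141205). Its mean was 127632 ± 18692 CPM (SD, n = 2). It took 11.4% of sense gene counts in replicate 1 and 14.1% in replicate 2, or 4.14% and 4.91% of all reads. By reads that map to 1 place, it stood first among all genes in replicate 2, and second in replicate 1, where only Mir126a, an endothelial microRNA, was higher. Multimapping reads, at 10.6 per Mir378a count in replicate 1 and 8.81 in replicate 2, lie outside this ranking, so a microRNA encoded at several loci could stand higher.

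Mir378d came next among the relatives, at rank 106 of all genes in replicate 1 and 103 in replicate 2. It had 704 counts in replicate 1, or 208 CPM (193 to 224), and 896 in replicate 2, or 244 CPM (228 to 260.2), with a mean of 226 ± 25.2 CPM (SD, n = 2). Mir378c had 120 counts in replicate 1, or 35.5 CPM (29.7 to 42.4), and 149 in replicate 2, or 40.5 CPM (34.5 to 47.6). Its mean was 38.0 ± 3.58 CPM (SD, n = 2). The intervals of Mir378d and Mir378c lay well apart in both libraries.

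Mir378b was the lowest of the Mir378 genes. It had 43 counts in replicate 1, or 12.7 CPM (9.44 to 17.1), and 27 in replicate 2, or 7.34 CPM (5.05 to 10.7), with a mean of 10.03 ± 3.79 CPM (SD, n = 2). Gm25301 had 0 sense counts in both libraries, which allows up to 0.887 CPM in replicate 1 and 0.816 CPM in replicate 2. The order Mir378a, Mir378d, Mir378c, Mir378b, Gm25301 was the same in the 2 libraries, and no interval of one gene overlapped that of its neighbour in the same library. All 4 Mir378 genes, but not Gm25301, reached the minimum of 10 counts in each library that 316 genes passed.

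Of the sense counts summed over the 4 Mir378 genes, Mir378a held 99.8% in both libraries. Mir378d held 0.181% in replicate 1 and 0.173% in replicate 2, Mir378c 0.0309% and 0.0287%, and Mir378b 0.0111% and 0.00520%. The 3 relatives together thus gave 867 counts beside 387143 of Mir378a in replicate 1, and 1072 beside 517774 in replicate 2.

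**Figure D1:**
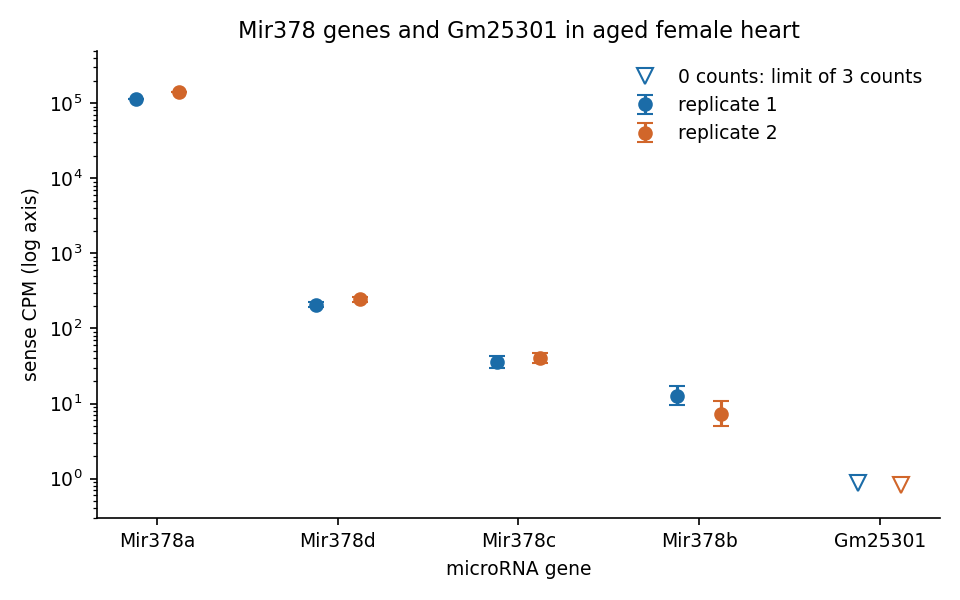
Sense CPM of the 4 Mir378 genes and Gm25301 on a log axis, with 1 point per library and 95% Wilson intervals as bars; open triangles mark the limit of 3 counts where a gene had 0. Mir378a sits at 114415 and 140849 CPM, Mir378d at 208 and 244, Mir378c at 35.5 and 40.5, Mir378b at 12.7 and 7.34, and Gm25301 has only a limit below 1 CPM.

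The 2 libraries were then compared gene by gene, to ask whether the members differed by more than counting noise. Sense counts of each gene were put to an exact binomial test, two-sided, with library sizes scaled by the trimmed mean of M-values (TMM) and Benjamini-Hochberg adjustment over the 316 genes. It sets these 2 libraries against each other, not conditions, and it called 60.4% of the genes tested, 33.2% as higher in replicate 2 and 27.2% as higher in replicate 1. Against that background, 2 of the 4 Mir378 genes were called, in opposite directions.

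Mir378a was called higher in replicate 2, by 1.13-fold, a log2 ratio of 0.18 (exact 95% interval 0.17 to 0.18), with a p-value too small for the software to write. That is a small difference for these libraries, since 241 of the 316 genes had a larger absolute log2 ratio and the median absolute log2 ratio was 0.45. Mir126a, which enters the denominator, was lower in replicate 2 (57714 CPM, against 129043 CPM in replicate 1). Other genes of the total moved as well. From replicate 1 to replicate 2, Mir22 went from 51384 down to 14527 CPM and Mir23b from 54440.5 up to 73993 CPM. Leaving out Mir126a alone was a choice made after seeing the data. With Mir126a left out of the total, Mir378a had 131367 CPM in replicate 1 and 149476 CPM in replicate 2, so that the ratio of replicate 2 to replicate 1 was 1.14 in place of 1.23.

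Mir378b was called higher in replicate 1, by 1.89-fold, with a log2 ratio of -0.91 (exact 95% interval -1.67 to -0.19; exact binomial test, adjusted p = 0.0198). This rests on 43 and 27 counts, and 81 of the 316 genes had a larger absolute log2 ratio. Mir378d had a log2 ratio of 0.10 (-0.04 to 0.25; exact binomial test, adjusted p = 0.222) and Mir378c one of 0.07 (-0.29 to 0.43; exact binomial test, adjusted p = 0.786). These do not pass the threshold, and their intervals hold the ratio of Mir378a. With plain library totals in place of TMM, the median of all tested genes stood at 0.18 in place of 0.05 on the log2 scale, and Mir378d was called higher in replicate 2 (log2 ratio 0.23; exact binomial test, adjusted p = 0.00332).

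**Figure D2:**
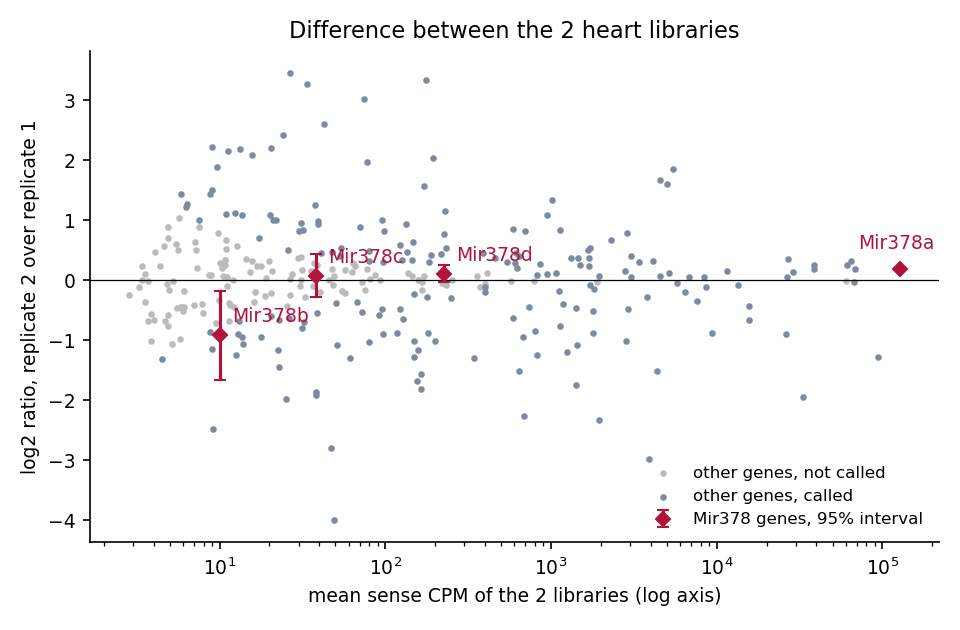
Log2 ratio of TMM-scaled sense counts, replicate 2 over replicate 1, against the mean sense CPM of the libraries on a log axis, for the 316 genes with 10 or more counts in each. Red diamonds with exact 95% intervals are the Mir378 genes: Mir378a lies at the far right at 0.18, Mir378d and Mir378c near 0, and Mir378b at -0.91 with an interval that stays below 0.

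Ratios between members, which rest on the same counts, set Mir378b apart likewise. Against Mir378d, the ratio of Mir378a was 549.9 in replicate 1, with an exact 95% interval of 511 to 593, and 578 in replicate 2 (541 to 618). It was 3226 times Mir378c in replicate 1 (2698 to 3891) and 3475 times in replicate 2 (2960 to 4108). Mir378d was 5.87 times Mir378c in replicate 1 (4.83 to 7.18) and 6.01 times in replicate 2 (5.05 to 7.20). For these 3 pairs, the larger ratio of the libraries exceeded the smaller by 1.05, 1.08 and 1.03 times, and the intervals overlapped.

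Mir378a was 9003 times Mir378b in replicate 1 (6684 to 12441) and 19177 times in replicate 2 (13180 to 29100), intervals that do not overlap. Mir378d exceeded Mir378b by 16.4 times in replicate 1 (12.0 to 22.8), and by 33.2 times in replicate 2 (22.7 to 50.6). Mir378c was 2.79 times Mir378b in replicate 1 (1.95 to 4.05) and 5.52 times in replicate 2 (3.64 to 8.65). The ratios to Mir378b thus differed between the libraries by 1.98 to 2.13 times, on at most 43 counts of Mir378b, and the intervals against Mir378d and Mir378c still met.

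**Figure D3:**
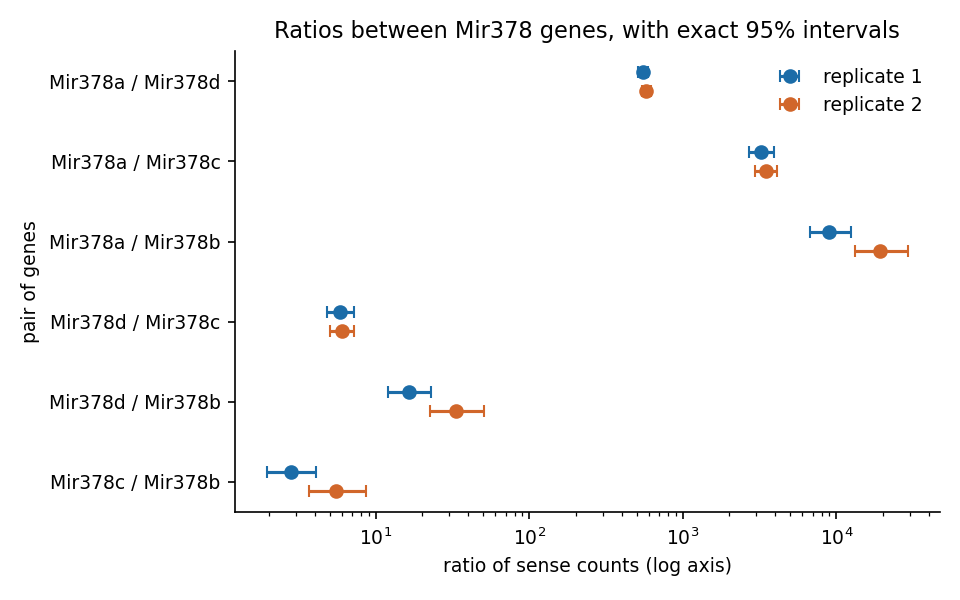
Ratios of sense counts between pairs of Mir378 genes in each library, on a log axis, with exact 95% intervals. The 3 ratios without Mir378b overlap between replicates 1 and 2, while the ratio of Mir378a to Mir378b is 9003 in replicate 1 and 19177 in replicate 2 with intervals apart.

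Whether Mir378a is seen at all depends on which of the 3 deposited count columns is read. In the sense column it had 387143 and 517774 counts in replicates 1 and 2. In the column for reads on either strand, which covers the sense strand too, it had 0 counts in both libraries. Gm25301 had the mirror image, with 0 sense counts, 0 either-strand counts, and 387143 and 517774 antisense counts, the exact numbers of Mir378a. Mir378a itself had 0 antisense counts, which allows an antisense share of up to 0.000775% in replicate 1 and 0.000579% in replicate 2. By sense counts, Mir378a stood at least 129048-fold above Gm25301 in replicate 1 and at least 172591-fold in replicate 2, with Gm25301 set at 3 counts per library.

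The missing counts appear among the reads that the files list as ambiguous. This class was empty in the sense column and held 925685 reads in replicate 1 and 852067 in replicate 2 in the either-strand column. The annotation holds 32 pairs of microRNA genes that overlap on opposite strands, with 64 genes in all. Sense counts missing from the either-strand column at these pairs sum to 925685 in replicate 1 and 852067 in replicate 2, the ambiguous totals to the read. The pair of Mir378a and Gm25301 gave 41.8% of them in replicate 1 and 60.8% in replicate 2, and with Mir126a and Mir126b, 89.0% and 85.7% were accounted for.

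Other genes of such pairs showed the same. The 6 pairs with the most sense counts were those of Mir378a, Mir126a, Mir191, Mir30e, Mirlet7e and Mir451a, with Gm25301, Mir126b, Gm24083, Mir30f, Gm25927 and Mir451b opposite them. Mir191 had 35153 and 46253 sense counts in replicates 1 and 2, Mir30e 26774 and 32901, Mirlet7e 21501 and 26442, and Mir451a 5723 and 2951, and each had 0 either-strand counts in both libraries. Mir126a kept 10 either-strand counts in each library. Its partner of 58 nt does not span its 73 nt. The same holds for Mir486, with 90 of 128 nt overlapped, and Mir374b, with 49 of 95 nt, yet both had 0 either-strand counts. Why Mir126a kept 10 was not tested. Of the 316 genes with 10 or more sense counts in each library, 22 had 0 either-strand counts in both, and all 22 belong to an opposite-strand pair.

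Mir378b, Mir378c and Mir378d have no microRNA gene opposite them. Their either-strand counts equalled their sense counts in both libraries, and their antisense counts were 0. That holds for most genes outside the pairs: of 293 with 10 or more sense counts in each library, 272 had 0 antisense counts in both, and in all 293 the either-strand count was the sum of the strands. All genes outside the pairs together had 99 antisense counts in replicate 1 and 142 in replicate 2. In the either-strand column Mirlet7i led replicate 1 and Mirlet7b led replicate 2, and gene totals were 27.4% and 23.2% below those of the sense column. There 595 genes stood above Mir378a in replicate 1 and 596 in replicate 2.

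**Figure D4:**
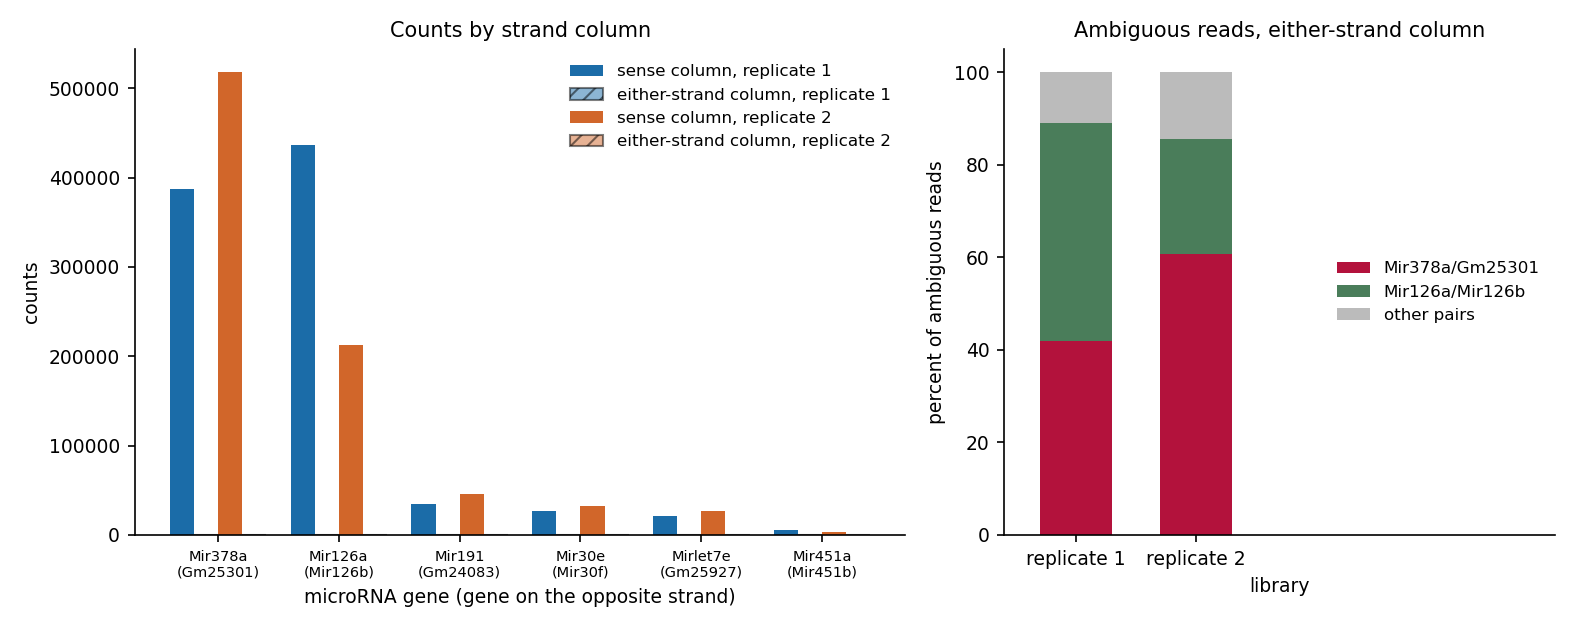
Left, counts in the sense column (solid bars) and the either-strand column (hatched bars, at or near 0 throughout) for the 6 highest opposite-strand pairs; right, the percent of ambiguous reads in the either-strand column that each pair holds, by library. Mir378a has 387143 and 517774 sense counts and 0 either-strand counts, and its pair holds 41.8% of ambiguous reads in replicate 1 and 60.8% in replicate 2.

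The place of each gene in mm10 was read from GENCODE M21. Mir378a (ENSMUSG00000105200.1, chromosome 18, 61397835 to 61397900, minus strand, 66 nt) lies on the strand of Ppargc1b, within the first intron of all 3 annotated transcripts, 2531 nt downstream of the gene start and 2389 nt from the end of the first exon. That intron measures 10203 to 76981 nt, depending on the transcript. Gm25301 (ENSMUSG00000093026.1, chromosome 18, 61397813 to 61397925, plus strand, 113 nt) covers the whole of Mir378a on the other strand and extends 22 nt and 25 nt beyond it. Of the 29 opposite-strand pairs with a sense count, this one included, the gene with more counts lay wholly inside its partner in 16.

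The 3 relatives are not in Ppargc1b. Mir378b (ENSMUSG00000092985.1, chromosome 11, 88352773 to 88352864, plus strand) lies opposite an intron of Msi2, the gene of the RNA-binding protein Musashi-2, in the 2 of 7 transcripts that span it. Mir378c (ENSMUSG00000099036.1, chromosome 14, 46954830 to 46954928, minus strand) lies opposite an intron of Samd4, the gene of an RNA-binding protein of the Smaug type, in the 4 of 11 transcripts that span it. Mir378d (ENSMUSG00000098756.1, chromosome 10, 126710282 to 126710391, minus strand) overlaps no annotated gene, and its nearest neighbour is the noncoding gene Gm47966 on the same strand, 3613 nt away. Mir378a is thus the only one of the 4 that lies in a protein-coding gene on that gene's own strand. Messenger RNA was not measured, so the level of Ppargc1b is not known from these libraries.

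**Figure D5:**
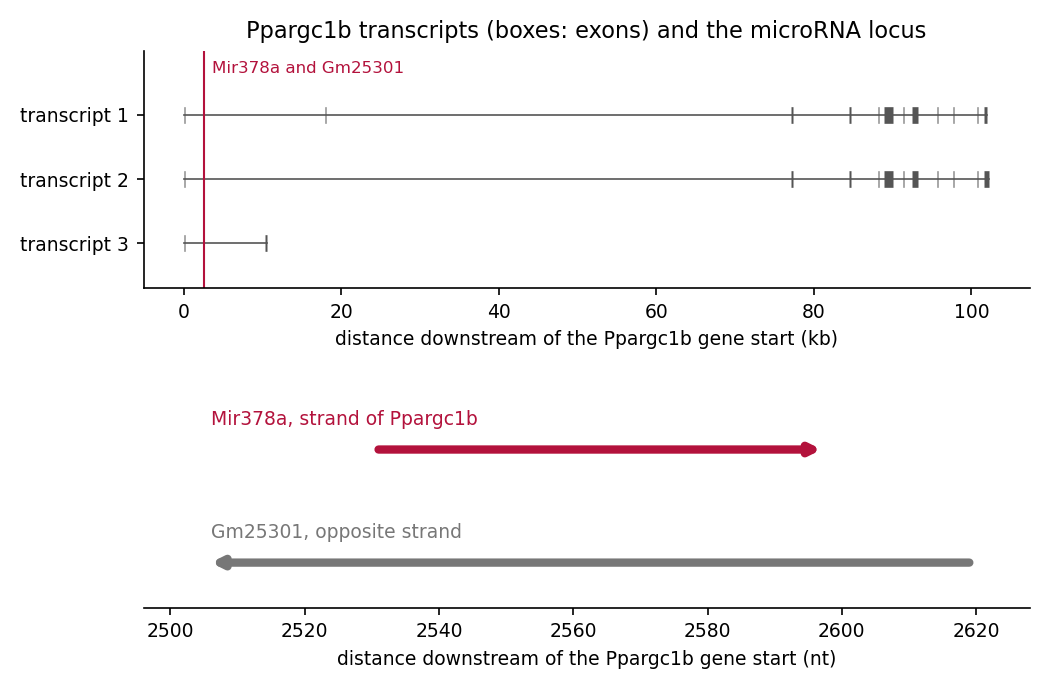
Top, the 3 annotated Ppargc1b transcripts as lines with exons as boxes, by distance in kb from the gene start, with the microRNA locus as a vertical line; bottom, Mir378a and Gm25301 on the scale of nucleotides, with arrows pointing 5′ to 3′. Mir378a starts 2531 nt into the gene, in the first intron of each transcript, and Gm25301 spans all of it on the other strand.

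The genes nearest to Mir378a, by the distance of log2(CPM + 1) over the 2 libraries, were Mirlet7b (distance 1.29), Mir126a (1.30), Mirlet7i (1.30), Mir23b (1.42) and Mir23a (1.51). With only 2 libraries this likeness is mostly one of level. Mirlet7b had 60724 CPM in replicate 1 and 75199 CPM in replicate 2, so that Mir378a stood at 1.88 and 1.87 times its level. Against Mir126a the ratio was 0.887 in replicate 1 and 2.44 in replicate 2. Against Mir23b it was 2.10 and 1.90. Mirlet7b, Mir23b and Mir23a also passed the test as higher in replicate 2 (log2 ratios 0.18, 0.32 and 0.24), whereas Mir126a (-1.28) and Mirlet7i (-0.04) were called higher in replicate 1. The direction of Mirlet7i depends on the TMM scaling, since in CPM it stood at 65329 in replicate 1 and 69311 in replicate 2.

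Mir378a was set beside a list of 14 other microRNAs, drawn up as intron microRNAs of metabolic or muscle host genes. Whether each host fits that name was not tested. The 114415 and 140849 CPM of Mir378a were close to the sum of all 14, 115454 CPM in replicate 1 and 136459 CPM in replicate 2. Mir23b alone gave 54440.5 and 73993 CPM of these sums. Of the 13 tested, 4 were called higher in replicate 2, 5 higher in replicate 1 and 4 were not called, beside 60.4% of all 316 genes called, so the count is near the background. Their median log2 ratio was 0.09, beside 0.05 for all 316 genes. Mir139, in the phosphodiesterase gene Pde2a, was called higher in replicate 2 (log2 ratio 0.18), as was Mir107, in the pantothenate kinase gene Pank1 (0.85). The cardiac myosin intron microRNAs went the other way: Mir208a of Myh6 (-0.47), Mir208b of Myh7 (-1.91) and Mir499 of Myh7b (-0.28) were called higher in replicate 1. Mir33, in Srebf2, a regulator of sterol synthesis, had 7.98 and 9.25 CPM in replicates 1 and 2, near Mir378b in level, and was not called.

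Markers of cell types moved between the libraries as well, and their part in the values of Mir378a was not tested. Beside the counts that follow, 33.2% of all 316 genes were called higher in replicate 2 and 27.2% higher in replicate 1. Of 7 adipose and brown fat microRNAs, 3 were tested and all 3 were called higher in replicate 2. The 7 summed to 1294 CPM in replicate 1 and 1853 CPM in replicate 2, most of it Mir455. Mir365-1, Mir365-2 and Mir196a-2 had 0 to 6 counts in a library, and Mir196a-1 was at 0. Multimapping reads are left out of every sum given here, so microRNAs encoded at several loci may be undercounted. Striated muscle microRNAs (6 of 9 tested, 4 higher in replicate 1) summed to 5734 and 4922 CPM. The other tested members, Mir206 (log2 ratio 0.51) and Mir133b (0.88), leaned towards replicate 2 and were not called. Endothelial Mir126a was higher in replicate 1, as were 3 of 3 erythroid genes, whose sums were 4182 and 1938 CPM. Both smooth muscle genes (35639 and 50822 CPM) and 5 of 5 white blood cell genes (8644 and 16363 CPM) were higher in replicate 2. Heart muscle markers Mir208a and Mir499 averaged 1418 ± 241 and 3772 ± 289.9 CPM (SD, n = 2). The other striated muscle genes were lower, at 72.0 CPM for Mir1a-2, 38.1 for Mir208b, 10.95 for Mir206, and 3.05 to 5.21 CPM for Mir1a-1, Mir133a-1, Mir133a-2 and Mir133b on average, with multimapping reads left out. In bulk tissue, more cells of a type and more microRNA per cell cannot be told apart.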

How the data were processed

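MicroRNA libraries of aged female mouse heart tissue, 2 in 1 group, were analysed. The deposited files hold raw counts, 1 row a microRNA gene, in columns for either, sense and antisense strand, with assembly mm10 and annotation GENCODE M21 per the readme text deposited beside them; strand roles were read from the values. Neither aligner nor counter is given in the sources used here. The 4 rows that are no genes (unmapped 14.9% and 16.2% of reads, multimapping 43.9% and 43.2%, featureless 5.07% and 5.75%, ambiguous 0%, in the sense columns of replicates 1 and 2) stayed out of totals and tests. Reads were mapped to mm10, so CAST/EiJ variants may lower counts, which was not tested.

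The members, lists and tests were chosen with earlier results of these data known. All 5 members are described, with the 5 nearest genes and the 6 highest opposite-strand pairs. Selected list members are named too, some of them below 10 counts in a library, as are further pairs. With 1 group, the between-library test was a two-sided exact binomial test, adjusted by Benjamini-Hochberg at 0.05, with TMM library sizes from edgeR 4.0.16; DESeq2 1.42.0 gave alternative size factors. A trial on simulated counts held only counting error and set folds, so it does not show how the test behaves on these libraries. Hairpins were folded with RNAfold 2.7.2. Alternatives covered scaling, minimum counts, strand column, denominator, thinning and each library left out. The software was R 4.3.3 and Python 3.11.15 with scipy 1.17.1.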

Additional observations from a re-analysis of the deposited data

Results flagged for a closer look

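Reads that map to more than 1 place numbered 4111511 in replicate 1 and 4559491 in replicate 2, far above the limit of 3 counts, and they entered none of the comparisons. They amount to 10.6 reads per sense count of Mir378a in replicate 1 and 8.81 in replicate 2. How many of them belong to Mir378 genes could not be read from the files.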

How the results depend on the processing

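The number of genes called between the libraries, 191, ranged from 132 (minimum of 100 counts) to 202 (minimum of 1 count) over all 6 alternatives. As a share of the genes tested, the 60.4% called became 72.9% of 181 genes at the minimum of 100 and 37.5% of 539 genes at the minimum of 1; library totals gave 198 calls, of which 128 were higher in replicate 2. Mir378a was called higher in replicate 2 under the 5 alternatives that could test it, with log2 ratios of 0.12 (DESeq2 size factors) to 0.30 (library totals); in the either-strand column it had 0 counts and could not be tested. Mir378b was called higher in replicate 1 under the 5 alternatives that could test it (-0.97 to -0.79; exact binomial test, adjusted p 0.0105 to 0.0490) and fell below the minimum of 100 counts. Mir378c was called under none of 6 and Mir378d under 1 of 6, library totals. The mean level of Mir378a was 0 CPM in the either-strand column, 0 CPM in the antisense column, and 45216.5 per 1000000 reads of the library, which counts unmapped and multimapping reads in the denominator. With each library left out in turn it ranged from 114415 to 140849 CPM, and with Mir126a left out of the denominator, a choice made after seeing the data, it was 140422 CPM. Gm25301 was at 0 except in the antisense column, where it mirrors Mir378a at 127632 CPM. No paired analysis was possible because the labels give 1 group. The values of Mir378b rest on 43 and 27 counts.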

Other observations

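In 10 of the 29 opposite-strand pairs with a sense count, both genes had sense reads in at least 1 library, unlike Mir378a and Gm25301. Mir3107, opposite Mir486, held 3.85% of the sense reads of its pair in replicate 1, with a 95% Wilson interval of 3.35 to 4.43, and 7.62% in replicate 2 (6.79 to 8.55). Mir3074-1, opposite Mir24-1, held 14.3% in replicate 1 (11.3 to 18.0) and 15.0% in replicate 2 (11.0 to 20.1). Of the 21 pairs whose higher gene had 10 or more sense counts in each library, 13 had a partner at 0 sense counts in both. Reads of these pairs are all listed as ambiguous in the either-strand column except those of Mir126a noted above.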
